A study of Mus musculus with 16 samples.

Results

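The clustered protocadherins are cell surface cadherins encoded by 3 neighbouring gene clusters, alpha, beta and gamma, on mouse chromosome 18. They were taken here as all gene symbols of the Pcdha, Pcdhac, Pcdhb, Pcdhga, Pcdhgb and Pcdhgc series that had a count above 0 in any tumor. This gave 55 genes of the 21854 genes with a count in at least 1 of 16 mouse rhabdoid tumors: 11 in the alpha cluster, 22 in the beta cluster and 22 in the gamma cluster. The gamma members are 12 gamma A, 7 gamma B and 3 gamma C genes. In GRCm38 the alpha cluster spans bases 36930184 to 37187661 of chromosome 18, the beta cluster 37264938 to 37524479 and the gamma cluster 37661793 to 37841873.

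In the alpha and gamma clusters each isoform has its own promoter and its own large variable exon, which carries the cadherin domains and is spliced to constant exons shared by the whole cluster. Beta genes consist of a variable exon alone and have no constant part. In neurons, promoters are chosen by chance, cell by cell, with the help of CTCF and cohesin, and the resulting set of isoforms on the membrane serves homophilic recognition between cells and self-avoidance of neurites. The C-type isoforms at the end of the alpha cluster (Pcdhac1, Pcdhac2) and of the gamma cluster (Pcdhgc3, Pcdhgc4, Pcdhgc5) are regulated apart from this choice. Pcdhac2 is known for the tiling of serotonergic axons, Pcdhgc3 for its contact with Axin1 and the Wnt pathway, and Pcdhgc4 for the survival of interneurons.

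Each tumor came from a different Smarcb1flox/flox;R26-CreERT2 mouse on a mixed 129/SV×C57BL/6 background, in which tamoxifen given in the embryo switched on a ubiquitous Cre recombinase. All 16 tumors thus carry the same deletion design, and no tissue without it was part of the series. The labels place 5 tumors within the central nervous system (intra-CNS), and these are the Shh tumors of the study's sample list. The other tumors are its Myc tumors, of which 6 were intracranial but outside the CNS and 5 extracranial, so that subgroup and growth within the CNS cannot be told apart. The Shh tumors were all induced at E6 and taken at 30 to 180 days of age. The intracranial Myc tumors were induced at E6 (1 tumor), E7 (1 tumor) or E8 (4 tumors) and taken at 52 to 170 days, and the extracranial ones at E6 (1 tumor) or E8 (4 tumors) and taken at 80 to 210 days. Tumor 43990A is extracranial in the labels and intracranial in the sample list. The Cre is not restricted to a cell type, each mouse gave 1 tumor, and the tumors hold host cells. Polyadenylated RNA was sequenced, and total counts ranged from 17889968 to 110177889 per tumor.

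Levels are given as counts per 1000000 counts of a tumor (CPM), and compare tumors for the same gene. Smarcb1, the targeted gene, was at 2.39 to 33.9 CPM in Shh tumors and at 4.73 to 30.0 CPM in Myc tumors, and the count covers the whole gene rather than the deleted exon. Marker lists for neuronal, glial and other cell types moved with the subgroups. Of 13 neuronal markers, 8 were higher in Shh tumors, with a summed level of 528 to 5957 CPM against 77.5 to 2071 CPM in Myc tumors. The highest Myc sum was that of 29941C, with 1665 CPM from Nefl alone. Dcx was at 7.97 to 126 CPM in Shh tumors and at most 0.577 CPM in Myc tumors, of which 2 were at 0. Oligodendrocyte markers (8 of 10 higher) summed to 11779 CPM in Shh tumor 29048 and to at most 286 CPM in any other tumor, and 3 of 7 astrocyte markers were higher. Of the immune markers 5 of 7, of the fibroblast and meningeal markers 5 of 6 and of the skeletal muscle markers 3 of 5 were lower in Shh tumors, and 0 of 7 pituitary markers differed. In bulk tumors, fewer cells of a type and less RNA per cell cannot be told apart. In the paper's single-cell data of Shh tumors, Dcx, Stmn2 and Tubb3 marked neuronal clusters among the tumor cells. Neuronal markers of tumor cells and of admixed cells thus cannot be told apart here either.

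The subgroup difference ran through the clusters unevenly. The alpha cluster summed to 77.0 ± 28.9 CPM (SD, n = 5) in Shh and to 4.30 ± 4.20 CPM (SD, n = 11) in Myc tumors, and every Shh tumor lay above every Myc tumor. The beta cluster summed to 446 ± 155 CPM in Shh and 124 ± 72.5 CPM in Myc tumors, and only Myc tumor 43987A, at 255 CPM, passed the lowest Shh tumor, 29048, at 251 CPM. The gamma cluster summed to 263 ± 53.4 CPM in Shh and 164 ± 80.6 CPM in Myc tumors, and 7 of the 11 Myc tumors lay above the lowest Shh tumor. The ratio of the means was 17.9 for alpha, 3.60 for beta and 1.60 for gamma. For alpha, leaving out single tumors gave 15.8 (without Shh tumor R26P98) to 24.0 (without Myc tumor R26P170). Within the alpha cluster the ratio was 39.3 for the 2 C-type isoforms and 10.2 for the variable ones. Likewise, the C-type ratio ran from 31.6 (without R26P98) to 84.7 (without Myc tumor R26P115). The variable ratio ran from 8.96 (without Shh tumor 38594A) to 15.1 (without R26P170). Scaling by TMM (the trimmed mean of M values, which the tests used) moved Shh against Myc levels by -0.31 on the log2 scale relative to CPM, and the fold changes below include this.

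**Figure D1:**
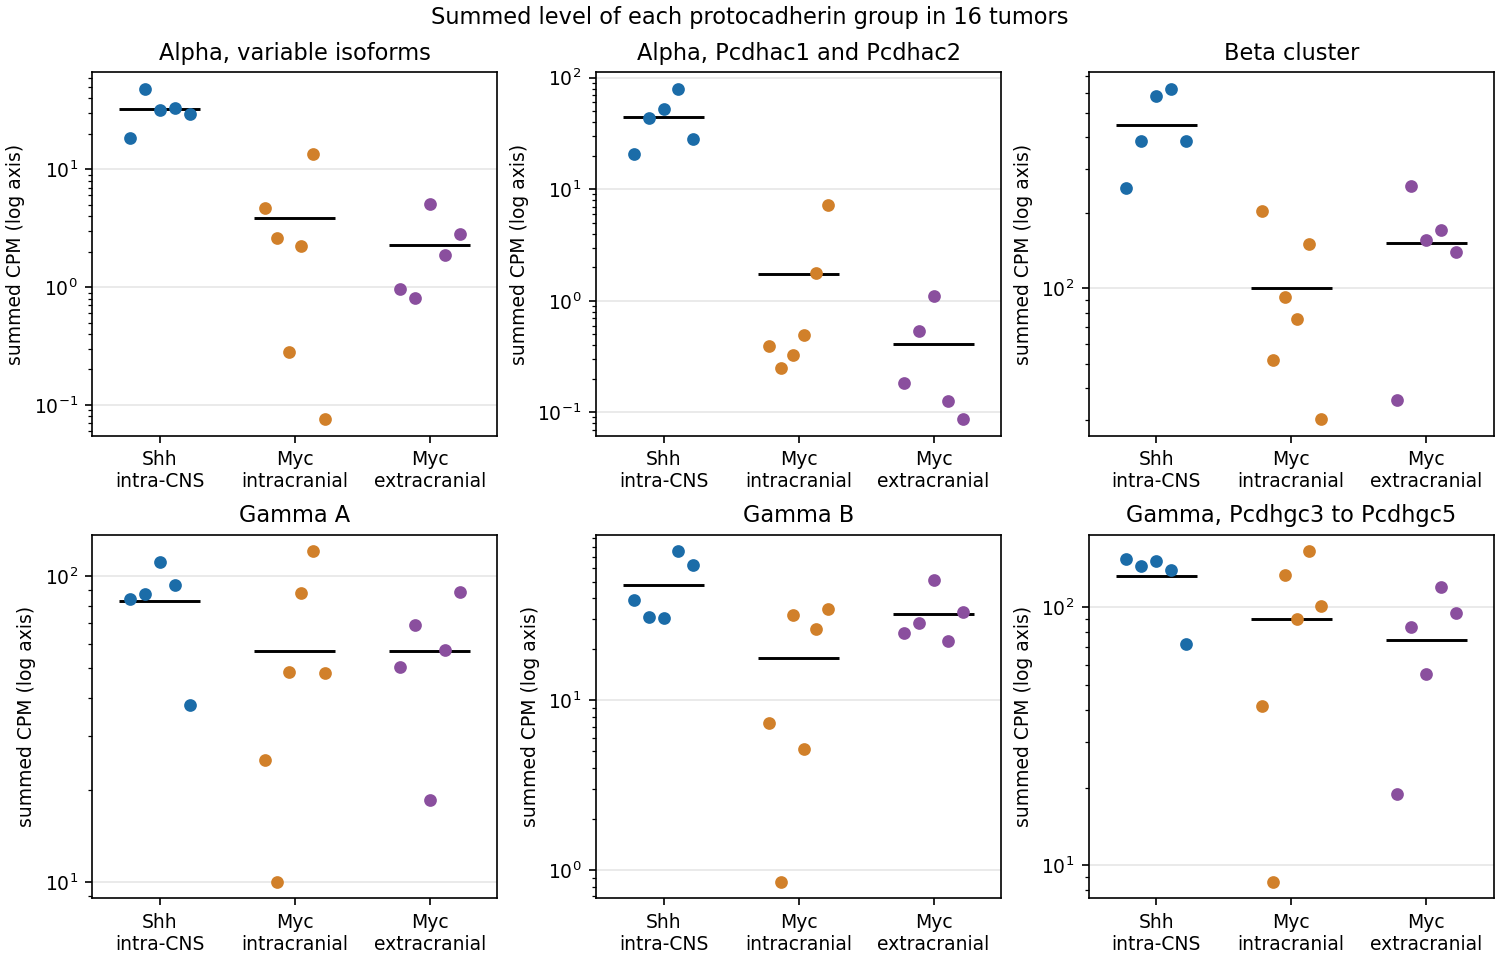
Summed CPM (log axis) of 6 groups of clustered protocadherins in each of 16 tumors, with 1 point per tumor and a bar at the group mean, for Shh intra-CNS, Myc intracranial and Myc extracranial tumors. Both alpha panels show the 5 Shh tumors above all 11 Myc tumors, while the gamma panels overlap.

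Between subgroups, 18 of the 55 members were higher in Shh tumors and 0 were lower (called by edgeR where the adjusted p was below 0.05 and the log2 fold change exceeded 1 in size). Over all 21854 genes tested, 12.9% were higher and 13.1% lower by the same rule. The 18 were 6 of 11 alpha, 10 of 22 beta and 2 of 22 gamma members. The gamma count depended on the fit, with 1 to 10 called under the alternatives of the last section. The median log2 fold change over all 55 members was 1.06, against -0.15 over all genes tested. For 9 members every Shh tumor lay above every Myc tumor after TMM scaling, which held for 5.43% of all genes tested, and for 0 members did every Shh tumor lie below every Myc tumor (5.72% of all genes). DESeq2 called 21 members, where it called 29.1% of all genes.

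Read as shares of all member counts of a tumor, alpha isoforms made up 6.9 to 12.4% in Shh and 0.2 to 3.9% in Myc tumors. The beta share was 44.3 to 62.6% in Shh tumors and ran from 13.6% in R26P115 to 72.0% in 43989C among Myc tumors. The gamma share was 28.0 to 48.8% in Shh and 26.2 to 83.1% in Myc tumors. The alpha shares did not overlap between subgroups, and the Myc tumors covered the whole range of the Shh tumors in the other clusters. These shares compare tumors, not clusters: reads over shared constant exons, and over Pcdha4, Pcdha6 and Pcdha7, may be left uncounted, which would understate alpha and gamma against beta.

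**Figure D2:**
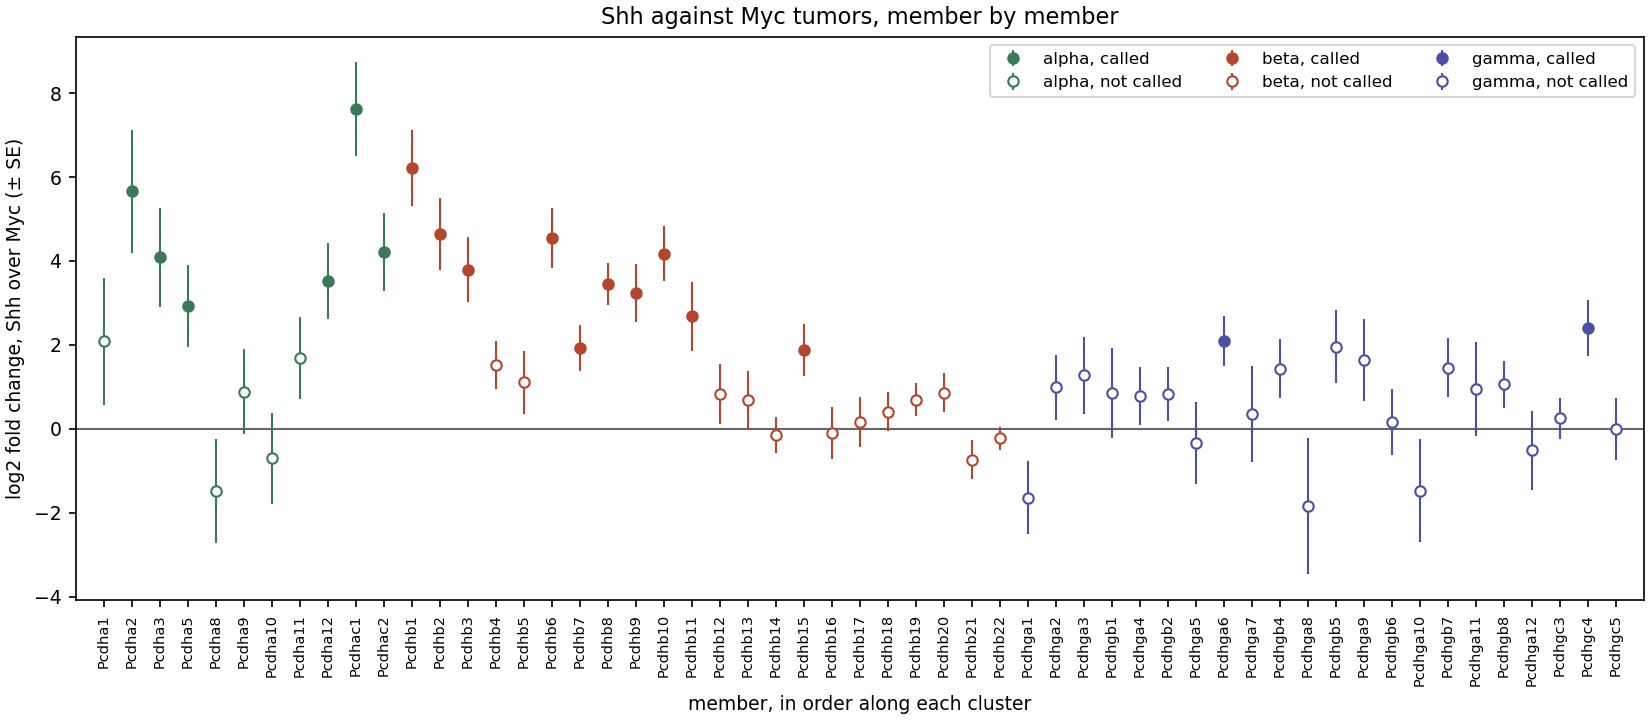
Log2 fold change (Shh over Myc, ± SE) of all 55 members in their order along the clusters, with filled points for members past the threshold and open points for the others. The filled points lie in the alpha cluster and in the beta cluster up to Pcdhb11, with Pcdhb15, Pcdhga6 and Pcdhgc4 beyond.

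In the alpha cluster both C-type isoforms were among the largest differences. Pcdhac1 was at 4.07 CPM in tumor 29048, 12.3 in 38594A, 27.1 in 29050A, 38.6 in R26P98 and 4.8 in R26P87, and at 0, 0 and 0.367 CPM (lowest, median and highest) in Myc tumors. The highest Myc tumor, 43990A, lay far below the lowest Shh tumor, 29048. The fitted log2 fold change was 7.62 ± 1.12 (SE, adjusted p = 0.000119), a value that depends on the prior count because 6 of the 11 Myc tumors were at 0. Leaving out single tumors gave 7.10 to 8.32, the highest without 43990A.

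Pcdhac2 was at 16.5, 31.0, 24.9, 40.9 and 23.2 CPM in the Shh tumors, in the same order, and at 0.0864, 0.391 and 7.24 CPM in Myc tumors (log2 fold change 4.22 ± 0.92, adjusted p = 0.00238). The groups did not overlap. Its highest Myc value belonged to R26P115, in which Pcdhac2 made up 99.0% of the alpha counts. Leaving out single tumors gave log2 fold changes of 4.04 to 5.64, the highest without R26P115.

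Of the 9 variable alpha isoforms, 4 were higher in Shh tumors: Pcdha2, Pcdha3, Pcdha5 and Pcdha12. Pcdha2 was at 6.25, 37.0, 20.5, 6.37 and 23.3 CPM in Shh tumors and at 0, 0 and 2.71 CPM in Myc tumors (log2 fold change 5.66 ± 1.46, adjusted p = 0.00715). Its Myc level lay mainly in R26P170. Leaving out single tumors gave log2 fold changes of 5.25 to 8.30, the highest without R26P170. With a Myc median of 0, these values depend on the prior count. Pcdha5 was at 1.41, 0.672, 5.44, 10.4 and 0.692 CPM in Shh and at 0, 0.317 and 1.47 CPM in Myc tumors (2.93 ± 0.99, adjusted p = 0.0314), and 2 Myc tumors passed the lowest Shh tumor. Its call was lost without 29050A (adjusted p = 0.069) or without R26P98 (2.09, adjusted p = 0.142). Over all single omissions its log2 fold change was 2.09 to 3.31.

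Pcdha3 and Pcdha12 are named after their values were seen. Pcdha3 was at 3.23, 7.97, 2.06, 1.31 and 3.01 CPM in Shh tumors and at 0, 0.0197 and 1.45 CPM in Myc tumors (4.09 ± 1.19, adjusted p = 0.0147). The Myc tumor at 1.45 CPM was R26P170, the only one above the lowest Shh tumor, and without it the log2 fold change was 6.16. Pcdha12 was at 2.42, 0.905, 1.22, 12.3 and 2.44 CPM against 0, 0.138 and 0.785 CPM (3.52 ± 0.90, adjusted p = 0.00693), without overlap on the CPM scale, and its call was lost without R26P98 (2.41, adjusted p = 0.056).

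The other 5 variable alpha isoforms did not pass the threshold. Pcdha1 (log2 fold change 2.08 ± 1.52, adjusted p = 0.299) and Pcdha11 (1.69 ± 0.98, adjusted p = 0.193), named after their values were seen, were at no more than 1.02 CPM in any tumor. Pcdha8 was at -1.49 ± 1.24, Pcdha9 at 0.89 ± 1.02 and Pcdha10 at -0.71 ± 1.09 on the log2 fold change scale. The last 3 led the few alpha counts of most Myc tumors: Pcdha10 took the largest share in 3, Pcdha8 in 3, Pcdha9 in 1, Pcdha5 in 1 and Pcdhac2 in 3 of the 11. In Shh tumors the largest share belonged to Pcdhac2 in 2, Pcdha2 in 2 and Pcdhac1 in 1. These are shares of counts, not scaled for gene length. In R26P87 the lead of Pcdha2 over Pcdhac2 was within counting error (573 against 571 counts). The Myc shares rest on 25 to 460 alpha counts per tumor, and those of Shh tumors on 1308 to 5669. Pcdha4, Pcdha6 and Pcdha7 were listed at 0 in all 16 tumors and are not among the 55. Each overlaps a further gene model in the GENCODE annotation, and reads shared between gene models may be left uncounted, so that a 0 here cannot be read as absence.

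**Figure D3:**
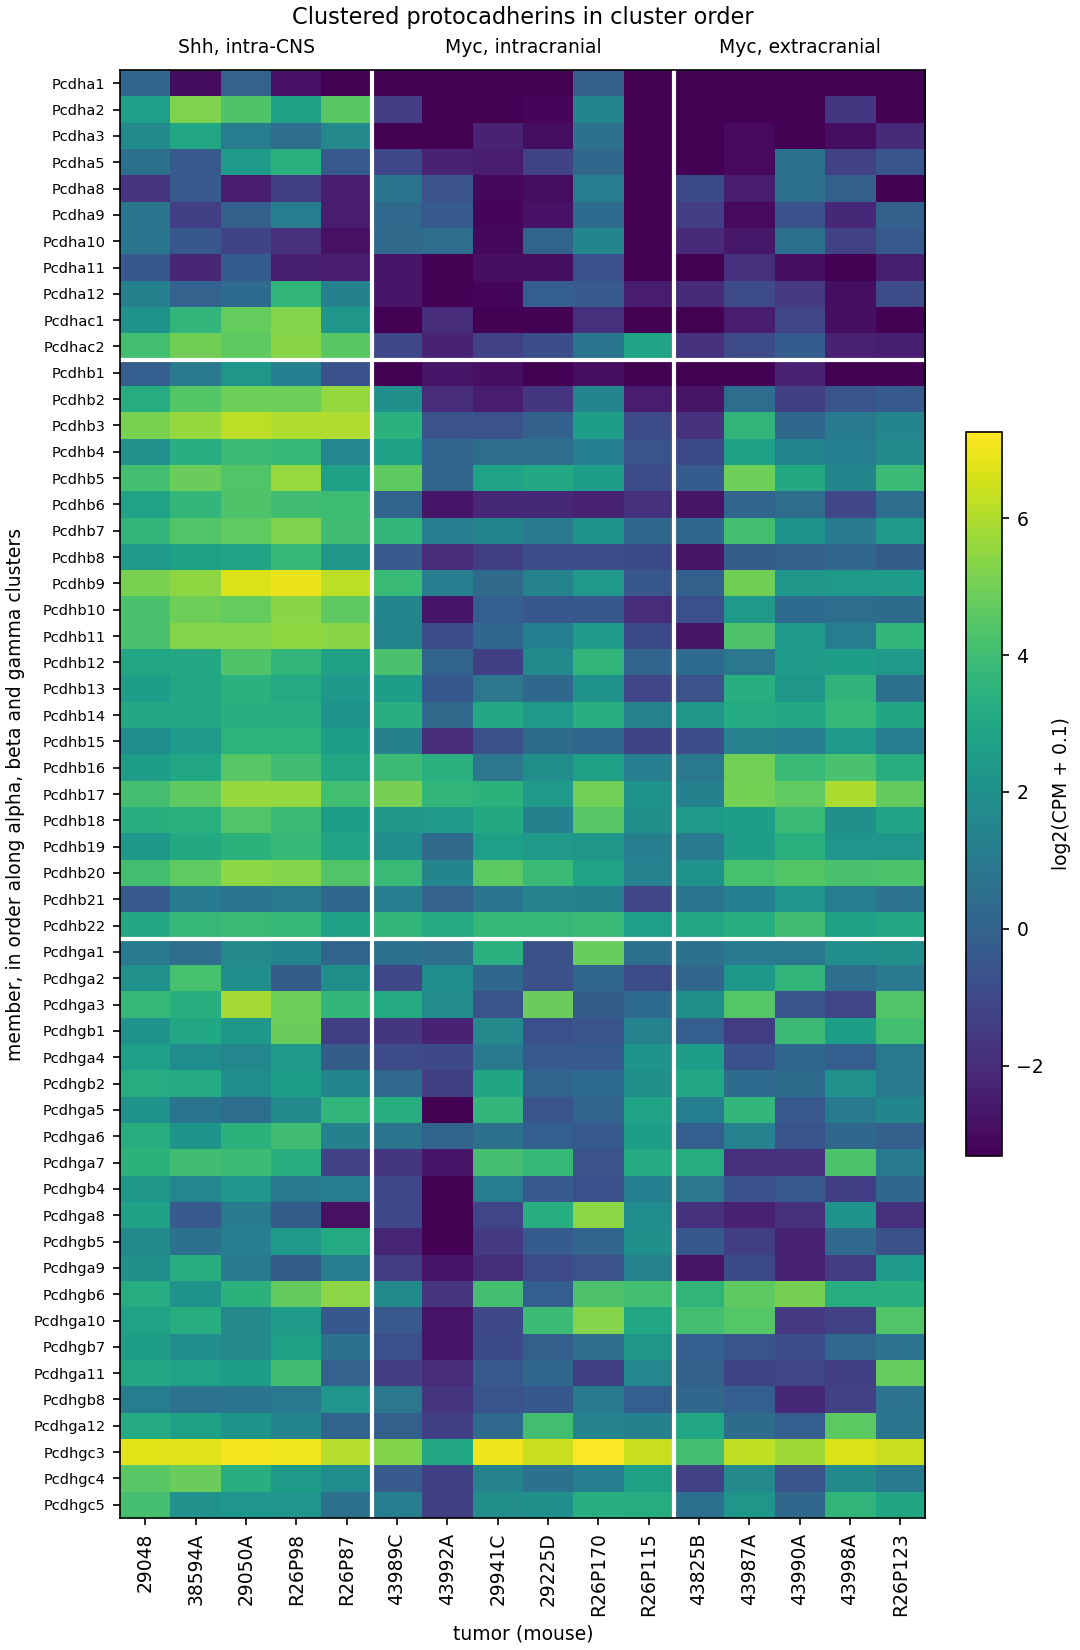
Log2(CPM + 0.1) of all 55 members (vertical axis, in cluster order) in the 16 tumors (horizontal axis, by mouse), with white lines between clusters and groups. Most genes of Pcdhb1 to Pcdhb11 and both Pcdhac1 and Pcdhac2 separate the 5 Shh tumors at the left from the Myc tumors, and the gamma rows vary from tumor to tumor.

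The beta cluster divided along its length. Of Pcdhb1 to Pcdhb11, 9 of 11 were higher in Shh tumors, with log2 fold changes of 1.11 to 6.22 (median 3.44). The other two, Pcdhb4 (1.53 ± 0.58, adjusted p = 0.0519) and Pcdhb5 (1.11 ± 0.75, adjusted p = 0.265), are named here after their values were seen. Of Pcdhb12 to Pcdhb22, 1 of 11 was higher (Pcdhb15), with log2 fold changes of -0.74 to 1.87 (median 0.41). The division after Pcdhb11 was drawn after the values were seen and was not tested. Summed, Pcdhb1 to Pcdhb11 reached 306 ± 103 CPM in Shh and 34.9 ± 36.9 CPM in Myc tumors, and Pcdhb12 to Pcdhb22 reached 140.3 ± 58.8 and 88.8 ± 44.1 CPM. The upper sum did not overlap between the subgroups, and for the lower sum 6 Myc tumors passed the lowest Shh tumor.

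Pcdhb1 had the largest fitted fold change of the beta genes, at a low level. Of the 11 Myc tumors, 7 were at 0 counts and the others at 1 to 4, so that this value depends on the prior count. It was at 0.807, 1.87, 4.74, 2.28 and 0.529 CPM in the Shh tumors and at 0, 0 and 0.1 CPM in Myc tumors (log2 fold change 6.22 ± 0.91, adjusted p = 0.00012, and 5.63 without 29050A), and was named after its values were seen. Its promoter, like those of Pcdhac2, Pcdhgc4 and Pcdhgc5, is known to lack the conserved element bound by CTCF in the other clustered protocadherins.

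Pcdhb2 was at 9.36, 21.6, 30.4, 30.4 and 48.4 CPM in Shh tumors and at 0.0461, 0.300 and 3.86 CPM in Myc tumors (4.65 ± 0.86, adjusted p = 0.00071). Pcdhb6 was at 6.79, 12.7, 20.5, 15.9 and 15.7 CPM against 0.0461, 0.188 and 1.32 CPM (4.54 ± 0.71, adjusted p = 0.000195). Pcdhb10 was at 18.7, 30.5, 26.9, 41.4 and 24.4 CPM against 0.0503, 0.808 and 5.11 CPM (4.17 ± 0.65, adjusted p = 0.000191). For all 3 genes every Shh tumor lay above every Myc tumor.

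Pcdhb9 and Pcdhb3 held the largest shares of beta counts in Shh tumors, Pcdhb9 in 4 and Pcdhb3 in 1. Pcdhb9 was at 35.4, 45.0, 104, 123 and 73.1 CPM in Shh and at 0.641, 4.74 and 30.9 CPM in Myc tumors (3.24 ± 0.70, adjusted p = 0.00215). On the CPM scale its highest Myc tumor, 43987A, lay just below the lowest Shh tumor, 29048, whereas after TMM scaling the groups overlapped. Leaving out single tumors gave log2 fold changes of 3.00 to 3.89, the highest without 43987A. Pcdhb3 was at 34.7, 47.3, 73.0, 63.0 and 64.0 CPM in Shh tumors and at 0.184, 1.07 and 12.2 CPM in Myc tumors (3.79 ± 0.77, adjusted p = 0.00145).

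Smaller differences were found for Pcdhb11 (2.69 ± 0.82, adjusted p = 0.0191), Pcdhb7 (1.93 ± 0.56, adjusted p = 0.0144) and Pcdhb15 (1.87 ± 0.62, adjusted p = 0.0285). For each, 1 or 2 Myc tumors passed the lowest Shh tumor. The call of Pcdhb15 was lost without 29050A (adjusted p = 0.079) or without R26P98 (0.075), while its log2 fold change stayed at 1.67 to 2.27 over all single omissions.

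Among Myc tumors, 43987A and 43989C had the highest sums over Pcdhb1 to Pcdhb11, at 124 and 79.3 CPM, where the other 9 lay between 4.01 and 48.0 CPM. Pcdhb9 was at 30.9 CPM in 43987A and 14.1 in 43989C, and Pcdhb7 was at 16.4 and 12.6 CPM. The lower beta genes held the leading shares in Myc tumors, Pcdhb17 in 7, Pcdhb20 in 2 and Pcdhb22 in 2 of the 11. In 43987A the lead of Pcdhb17 (12.9%) over Pcdhb16 (12.7%) was within counting error.

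Pcdhb17 was at 17.4, 24.4, 48.3, 48.0 and 16.4 CPM in Shh tumors and at 2.40, 25.5 and 61.1 CPM in Myc tumors (0.16 ± 0.60, adjusted p = 0.851). Pcdhb22 was at 8.16, 13.3, 14.3, 12.9 and 6.39 CPM in Shh and at 6.18, 9.58 and 16.2 CPM in Myc tumors (-0.23 ± 0.27, adjusted p = 0.529), the smallest SE of any beta gene. Pcdhb20 had a log2 fold change of 0.86 ± 0.46 (adjusted p = 0.162). All 3 overlapped between the subgroups.

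Of the gamma C-type genes, 1 of 3 was higher in Shh tumors. Pcdhgc3 had the largest share of gamma counts in all 16 tumors, although in 43825B its lead over Pcdhga10 was within counting error (18.4 against 17.8%). Pcdhgc3 was at 114, 111, 137, 130 and 67.4 CPM in Shh tumors and at 8.05, 84.6 and 153 CPM in Myc tumors (log2 fold change 0.25 ± 0.48, adjusted p = 0.709). The lowest values were in Myc tumors 43992A (8.05), 43825B (17.3) and 43989C (38.5). Compared between genes per kilobase of exon not shared with another member, Pcdhgc3 had the highest mean level of the 55 in both subgroups, 43.6 ± 10.5 CPM per kilobase in Shh and 29.5 ± 17.2 in Myc tumors. Next in Myc tumors came Pcdhb17 (6.85 ± 5.41), and in Shh tumors Pcdhb3 (14.9 ± 4.03) followed Pcdhb9.

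Pcdhgc4 was that gene. It was at 22.8, 28.8, 9.72, 5.40 and 3.46 CPM in Shh and at 0.302, 1.96 and 6.41 CPM in Myc tumors (2.41 ± 0.67, adjusted p = 0.0119). Its highest levels were in 29048 and 38594A, the 2 Shh tumors of highest neuronal marker sum (5957 and 4143 CPM). Without both, its log2 fold change was 1.14 (adjusted p = 0.30), and without 38594A alone it was 1.98 (adjusted p = 0.053). Leaving out the Shh tumors of highest Pcdhgc4 lowers its fold change in any case, and a part of the neuronal marker level in it was not tested. Pcdhgc5 had a log2 fold change of -0.01 ± 0.74 (adjusted p = 0.995), with 17.6 CPM in 29048 and 1.38 to 4.60 CPM in the other Shh tumors, against 0.302, 3.83 and 12 CPM in Myc tumors.

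**Figure D4:**
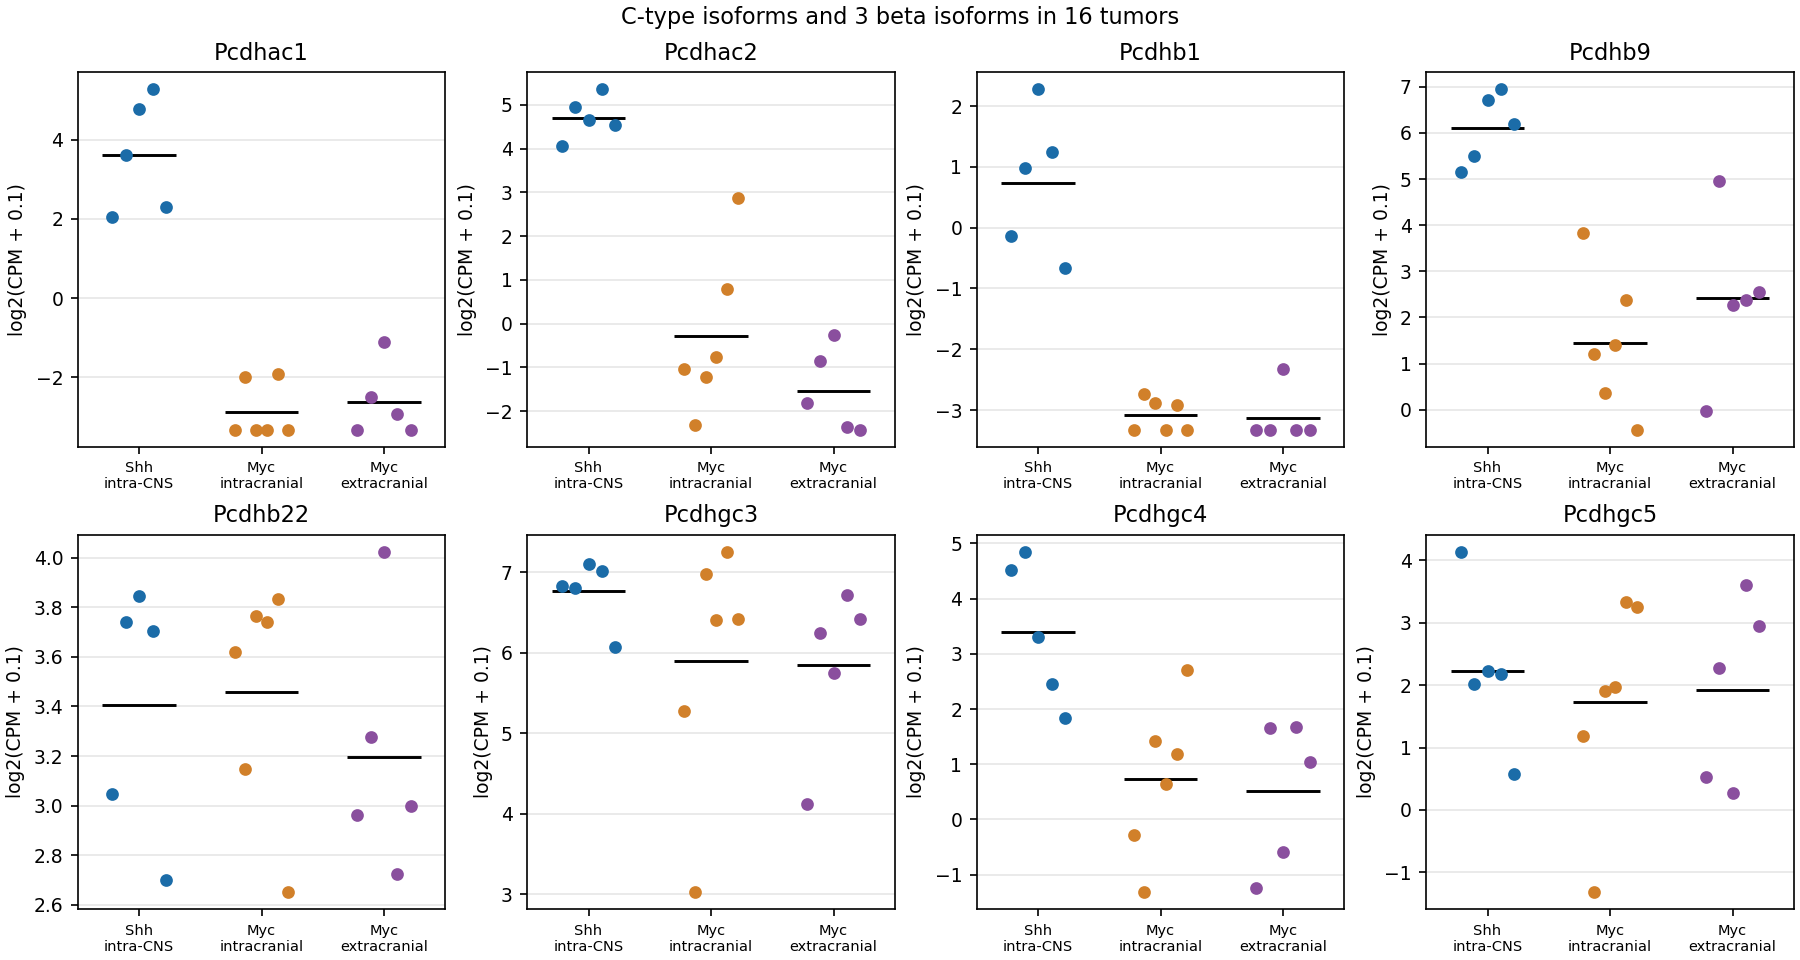
Log2(CPM + 0.1) of the 5 C-type isoforms and of Pcdhb1, Pcdhb9 and Pcdhb22 in each tumor, with 1 point per tumor and a bar at the mean of the plotted values in Shh intra-CNS, Myc intracranial and Myc extracranial tumors. Pcdhac1, Pcdhac2 and Pcdhb1 do not overlap between Shh and Myc tumors, whereas Pcdhb22, Pcdhgc3 and Pcdhgc5 do.

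The gamma A and B isoforms, which in neurons are the stochastically chosen part of the cluster, varied widely between single tumors of the same subgroup. Promoter choice was not tested in these bulk tumors. Of 19 such members, only Pcdhga6 was higher in Shh tumors, at 9.63, 4.41, 11.1, 16.3 and 2.44 CPM against 0.567, 0.956 and 6.07 CPM (2.10 ± 0.59, adjusted p = 0.0126). Its highest Myc tumor was R26P115. Leaving out single tumors gave log2 fold changes of 1.77 to 2.69, the highest without R26P115. Median log2 fold changes were 0.57 for gamma A (range -1.85 to 2.10) and 1.06 for gamma B (0.16 to 1.96). The summed level was 131 ± 26.3 CPM in Shh and 80.9 ± 37.3 CPM in Myc tumors.

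In most tumors a few isoforms held most gamma A and B counts, and which ones they were changed from tumor to tumor. The isoforms named here for leading a tumor, other than Pcdhga3, Pcdhga10, Pcdhgb1 and Pcdhgb6, were named after their values were seen. Pcdhgb6 led in 5 tumors and Pcdhga3 in 4, Pcdhga2 led in 2, and Pcdhga5, Pcdhga8, Pcdhga10, Pcdhga11 and Pcdhga12 led in 1 each. In 4 tumors (R26P98, 43989C, 43992A and 29941C) the runner-up lay within the 95% interval of the leader, so that their order is within counting error, and in 2 of these the runner-up was Pcdhga3. The highest single share was that of Pcdhgb6 in extracranial tumor 43990A, 48.1% of 2088 counts (95% Wilson interval 46.0 to 50.3%), where 3 isoforms (Pcdhgb6, Pcdhgb1 and Pcdhga2) made up 86.9%.

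Intracranial tumor R26P170 drew 30.2% of its gamma A and B counts from Pcdhga8 (interval 28.9 to 31.6%), 27.6% from Pcdhga10 and 18.8% from Pcdhga1. Tumor 29225D drew 30.5% from Pcdhga3, 17.7% from Pcdhga12 and 16.2% from Pcdhga10. Tumor 43998A drew 30.5% from Pcdhga12 and 23.9% from Pcdhga7, and R26P123 drew 22% from Pcdhga11. These 4 are examples with different leaders, whereas over all 11 Myc tumors Pcdhgb6 led in 4. Pcdhga10 was among the 3 leading isoforms of R26P170, 29225D and R26P123.

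Among the remaining Myc tumors, Pcdhgb6 led in 29941C (21.9%, interval 21.1 to 22.8%), 43987A (25.6%) and R26P115 (19.8%), followed in 29941C by Pcdhga7 (21.7%) and in 43987A by Pcdhga10 (22.8%). Tumor 43825B drew 22.3% from Pcdhga10. The 2 tumors with fewest counts gave wider intervals: Pcdhga5 held 29.2% of 579 counts in 43989C (25.6 to 33.0%) and Pcdhga3 28.0%, and Pcdhga2 held 31.5% of 216 counts in 43992A (25.7 to 38.0%) and Pcdhga3 31.0%.

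Shh tumors also differed among themselves. Pcdhga3 took 40.1% of the counts in 29050A (interval 39.2 to 41.1%) but 10.7% in 29048, and Pcdhgb6 took 42.2% in R26P87 (interval 40.2 to 44.1%). In 38594A Pcdhga2 led with 15.0%. The effective number of isoforms (the number of equally frequent isoforms that would give the same sum of squared shares) was 15.6 in 29048, 12 in 38594A, 5.17 in 29050A, 8.95 in R26P98 and 4.48 in R26P87.

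In Myc tumors the effective number was 3.23, 5.45 and 11.2 (lowest, median and highest), and the highest value belonged to R26P115. It thus overlapped between the subgroups, and the 2 highest Shh values were those of the 2 tumors of highest neuronal marker sum, whose part in the result was not tested. For the beta cluster the effective number was 9.44 to 14 in Shh and 5.91 to 12 in Myc tumors.

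Of the 19 gamma A and B members, 18 made up at least 5% in at least 1 tumor, and Pcdhgb4 in none. Pcdhgb6 reached 5% in 13 tumors, Pcdhga3 in 10, Pcdhga7 in 9 and Pcdhga10 in 8. Of the 120 pairs of tumors, 26 shared none of their 3 leading isoforms, 73 shared 1, 18 shared 2 and 3 shared all of them. As counts, the swings were wide: Pcdhga8 ranged over 0 to 44.5 CPM in Myc tumors with a median of 0.363 CPM, and Pcdhga11 over 0.151 to 26.7 CPM with a median of 0.367 CPM.

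**Figure D5:**
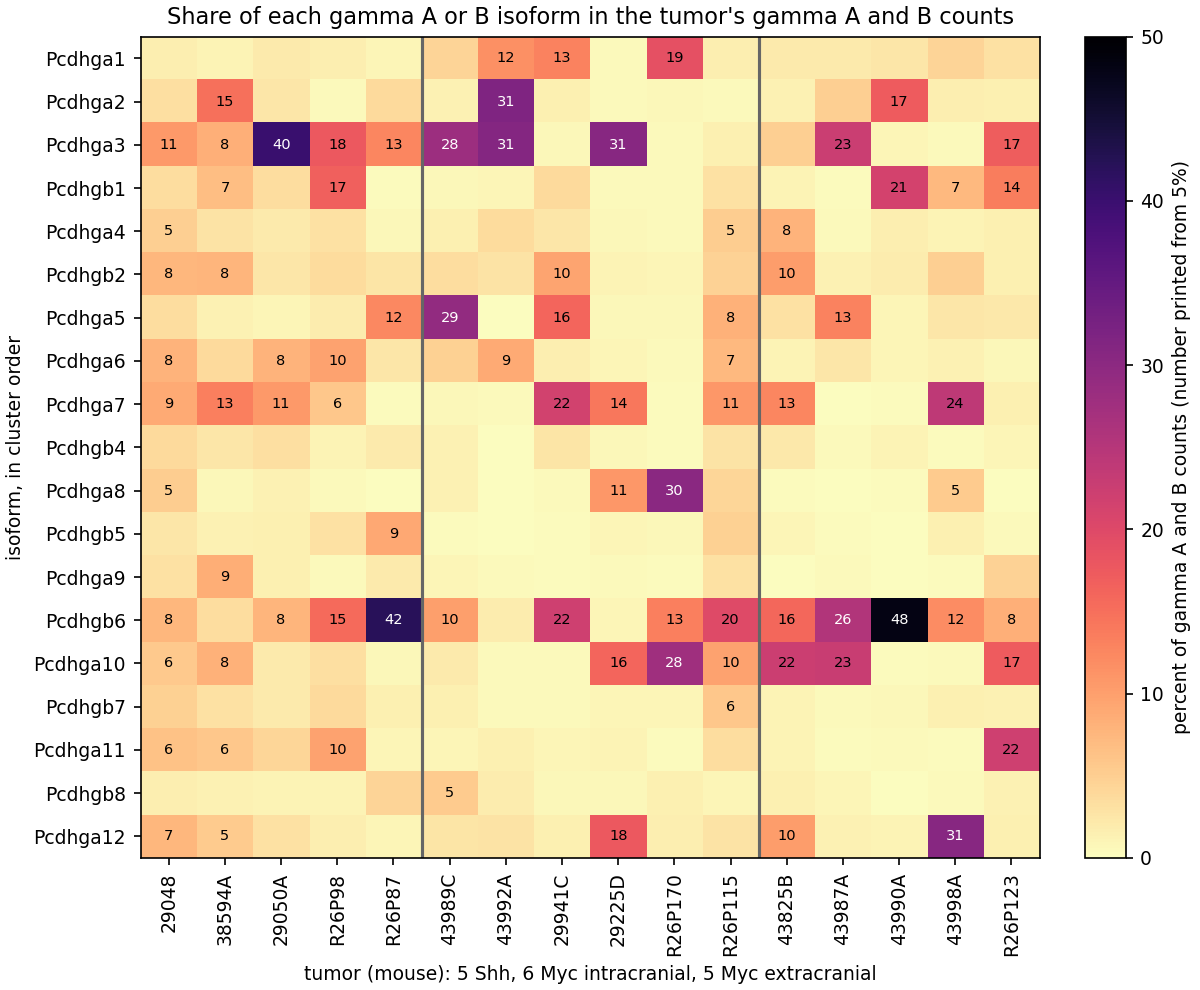
Share of each of the 19 gamma A and B isoforms (vertical axis, in cluster order) in the gamma A and B counts of each tumor (horizontal axis, by mouse), as percent, with shares from 5% printed. The darkest cells are Pcdhgb6 in 43990A and R26P87 and Pcdhga3 in 29050A, and the leading rows change from column to column.

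The site comparison asked whether Myc tumors inside and outside the skull differ. By edgeR, 0 of 55 members were called, where it called 1 of 21261 genes (0.0047%). By DESeq2, 0 members were called, where it called 490 genes (2.3%). With so few calls over all genes, these counts do not show that the members were alike at both sites. At an unadjusted p under 0.05, 3 of 55 members and 12.3% of all genes were found. These were Pcdhgb1 (log2 fold change -2.60 ± 1.12, intracranial over extracranial, adjusted p = 0.390), Pcdhac2 (2.68 ± 1.18, adjusted p = 0.395) and Pcdhga2 (-1.75 ± 0.80, adjusted p = 0.408). Pcdhac2 rested on R26P115: without it the log2 fold change was 1.003. With 43990A counted as intracranial, as in the sample list, Pcdhga2 was at 0.157 on the same scale and again 0 members were called. The beta cluster was at 101 ± 64.7 CPM in intracranial and 152 ± 78.3 CPM in extracranial Myc tumors, and the gamma cluster at 164 ± 104 and 163 ± 51.8 CPM. The alpha cluster was at 5.63 ± 5.22 and 2.71 ± 2.04 CPM, with 15.2 CPM in intracranial tumor R26P170.

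Mice were named by 2 schemes, numbers or R26P, and levels were also compared within each. All 18 members had a higher mean in Shh tumors within both, a direction that their choice over the same tumors favours. Within the numbered mice (3 Shh and 8 Myc) every Shh tumor lay above every Myc tumor for 20 of all 55 members and 17.2% of all genes, and within the R26P mice (2 Shh and 3 Myc) for 19 of the 55 and 29.2% of all genes. The ratio of the Shh to the Myc mean was 26.1 and 10.1 for the alpha cluster, 3.13 and 4.73 for the beta cluster, and 2.04 and 1.01 for the gamma cluster, for numbered and R26P mice respectively. With TMM scaling the gamma ratio in the R26P mice was 0.76, so that its direction turned there.

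The day of tamoxifen differs between the subgroups. Among tumors induced at E6 (5 Shh and 2 Myc), 11 members were higher and 2 were lower in Shh tumors, against 6.29% and 10.6% of all genes tested there. Of the 18 members, 10 were still called, Pcdhac1 (log2 fold change 7.19 ± 1.66) and Pcdhb10 (5.23 ± 0.51) among them. With 2 Myc tumors left, the other 8 were not called, but their log2 fold changes stayed positive: 3.87 for Pcdhb3, 3.37 for Pcdhb11 and 3.10 for Pcdhgc4, none smaller than over all tumors, and 3.93 for Pcdhb2, 3.40 for Pcdha2, 2.77 for Pcdha12, 2.37 for Pcdha5 and 1.88 for Pcdha3, all smaller. The 2 lower members were Pcdhga1 (-3.25 ± 0.90, adjusted p = 0.0456) and Pcdhga10 (-2.86 ± 0.81, adjusted p = 0.0478), both of which were high in R26P170, 1 of the 2 Myc tumors left. Without the 2 Shh tumors of highest neuronal marker sum, 14 of the 55 members and 8.27% of all genes were higher. These 14 were all among the 18, without Pcdha3, Pcdhb11, Pcdhb15 and Pcdhgc4. When Shh tumors were set against the 6 intracranial Myc tumors alone, 14 of the 55 members and 11% of all genes were higher, 13 of the 18 and Pcdhga11 (2.64). The other 5 of the 18 had log2 fold changes of 3.39 (Pcdha3), 3.14 (Pcdha5), 3.44 (Pcdha12), 1.77 (Pcdhga6) and 2.22 (Pcdhgc4) there, with adjusted p-values of 0.053 to 0.092.

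Genes that act on the clusters were examined as a list of 25 architecture and silencing factors. Of these, 4 were higher in Shh tumors and 0 lower (median log2 fold change 0.18), a share near the 12.9% of all genes that were higher. These were the DNA methyltransferases Dnmt3a (1.35 ± 0.40, adjusted p = 0.016) and Dnmt3b (1.41 ± 0.40, adjusted p = 0.013), Wiz, a zinc finger protein of the G9a complex (1.13 ± 0.20), and Wt1 (4.72 ± 1.32), a transcription factor at 10.7 CPM in R26P98 and at most 0.549 CPM in the other Shh tumors. Ctcf, which binds the promoters, was at 144 ± 30.1 CPM in Shh and 95.1 ± 20.7 CPM in Myc tumors (0.29 ± 0.16, adjusted p = 0.174). The cohesin subunit Rad21 (0.13 ± 0.20, adjusted p = 0.635), Smchd1, a repressor of the clusters (0.02 ± 0.19, adjusted p = 0.939), and Rest, a repressor of neuronal genes (-0.79 ± 0.31, adjusted p = 0.058), did not pass the threshold.

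Of 14 signalling and adhesion partners, 2 were higher and 1 lower (median -0.39), where 12.9% of all genes were higher and 13.1% lower. Wasf1, a subunit of the WAVE complex that protocadherins can recruit, was at 90.0 ± 49.3 CPM in Shh and 5.93 ± 3.85 CPM in Myc tumors (3.66 ± 0.51). The kinase Fyn was also higher (1.54 ± 0.51, adjusted p = 0.029), and Cyfip1, another WAVE subunit, was lower (-1.08 ± 0.23). Of 12 nonclustered protocadherins, which lie outside the clusters, 5 were higher and 0 lower (median 1.45), among them Pcdh8 (6.99 ± 0.58), Pcdh11x (4.23 ± 0.78) and Pcdh20 (3.19 ± 1.03). Pcdh8 was at 69.6 ± 60.6 CPM in Shh and 0.446 ± 0.314 CPM in Myc tumors, without overlap.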

How the data were processed

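RNA-seq of 16 mouse rhabdoid tumors was analysed. Mapping (mm10) and gene counting were done by the authors with STAR 2.5.3a, and the counts they deposited are not normalized. TPM values, which the authors made from these counts, were deposited as well. The gene annotation is not given in the sources used here. The TPM lengths of alpha and gamma genes include the constant exons, while STAR leaves reads over exons shared by several genes uncounted, so TPM was used only in alternatives. Reads that map to several paralogs are uncertain for all members.

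Groups followed the labelled tumor site. All genes counted at least once were tested with edgeR 4.0.16 (TMM, glmQLFit and glmQLFTest) in R 4.3.3, adjusted by Benjamini-Hochberg over all genes, with a threshold of 0.05 and an absolute log2 fold change above 1. The site fit used the Myc tumors alone. SEs were the log2 fold change over the root of the F statistic. P-values measure the spread between single tumors of different mice. The code was tested on simulated counts.

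Members, gene lists and tests were chosen with earlier results of these data known. Named members were the C-types, in each of the alpha, beta, gamma A and gamma B families the 2 of highest mean CPM and, among called members (mean count 50 or more) the 3 highest and 3 lowest fold changes, and the isoform of largest share of its cluster in each tumor. A floor of 3 counts corresponds to 0.0272 to 0.168 CPM. The 95% Wilson intervals and floors cover counting error only, since reads carry no molecular identifiers. Positions came from GENCODE release M21 (GRCm38), where Pcdha10 was matched by its start within 500 bases. Alternatives were DESeq2 1.42.0, its size factors, filterByExpr, limma 3.58.1 on log2(TPM + 1) and log2(TPM + 0.1), no fold threshold, the name scheme, subsets by day and site, and single tumors left out. Tables and figures used Python 3.11.15, pandas 2.3.3, numpy 2.4.6, scipy 1.17.1 and matplotlib 3.10.9.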

Additional observations from a re-analysis of the deposited data

Results flagged for a closer look

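In groups of 5 or 6 tumors, 93 groups of values were examined (31 measures in 3 groups), and 23 held 1 tumor set far apart from the rest of its group by Dixon's criterion, where chance gives about 1 in 20 for normally distributed values. CPM values are skewed and in places almost all at 0, and many of the members were named for leading a cluster in some tumor, so the number of gaps cannot be read against that rate. No cause of these gaps was tested.

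Tumor 43989C, among intracranial Myc tumors, stood apart for Pcdhb10 (2.63 CPM), Pcdhb6 (0.95 CPM), Pcdhb7 (12.6 CPM) and Pcdhb9 (14.1 CPM), each above the others. Tumor 43987A, among extracranial ones, stood apart for Pcdhb10 (5.11 CPM), Pcdhb3 (12.2 CPM), Pcdhb7 (16.4 CPM), Pcdhb9 (30.9 CPM) and Pcdhga6 (2.48 CPM).

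Tumor R26P115 stood apart among intracranial Myc tumors for Pcdhac2 (7.24 CPM), Pcdhga6 (6.07 CPM), Pcdhgc4 (6.41 CPM) and the effective number of gamma A and B isoforms (11.2). Tumor R26P170 did so for Pcdha2 (2.71 CPM), Pcdha5 (1.09 CPM) and Pcdhga10 (40.6 CPM), and 29225D for Pcdhga3 (28.4 CPM). R26P170 and 43989C also carried pituitary markers, at 149 and 197 CPM summed.

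Among extracranial tumors, 43998A stood apart for Pcdha2 (0.222 CPM, with the other 4 at 0), 43990A for Pcdhac1 (0.367 CPM) and 43825B, at the low end, for Pcdhb20 (4.24 CPM). Among Shh tumors, 29048 was low for Pcdhb11 (18.7 CPM) and high for Pcdhgc5 (17.6 CPM), and R26P98 was high for Pcdhgb1 (28.3 CPM).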

How the results depend on the processing

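Against 18 members called between subgroups, limma on log2(TPM + 0.1) called 31 and on log2(TPM + 1) called 29. For limma, the name scheme and the omissions of the 3 Myc tumors or of single tumors, the share of all genes called is not given here. Their counts in this paragraph therefore cannot be read as particular to the members. Of the alpha members 6 were called, 3 with intracranial tumors alone and 2 with tumors induced at E6 alone. Of the gamma members 2 were called, 4 by DESeq2, 1 with intracranial tumors alone, 10 and 8 by limma at pseudocounts of 0.1 and 1, 5 with the name scheme as a covariate, 5 without the Myc tumors R26P170, 43992A and R26P115, and 1 without Shh tumors 29048 and 38594A (both omissions chosen after seeing the data). Of the genes of the 3 other lists 12 were called, 19 by limma at either pseudocount and 20 without the fold threshold. Leaving out single tumors gave 15 to 20 members (15 without R26P98), 1 to 4 gamma, 4 to 8 alpha and 10 to 14 list genes. The cause was not tested. In 8 of the 18 the call held under all 26 alternative fits, and 0 members were called by site under any of 20. Over all 16 tumors, sums of TPM or TMM-scaled CPM kept the direction of all 3 cluster differences. For gamma, the mean log2 sum of Shh minus that of Myc tumors was 1.14 and 0.61, against 0.92 with CPM. This measure differs from the log2 of the ratio of means.

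The sign reversed under at least 1 alternative for 16 of the 55 members, 0 of them among the 18, and 0 were called where it reversed. The 6 of these 16 named by rule were Pcdhb22 (0.29 and 0.26 by limma at pseudocounts of 0.1 and 1), Pcdhga10 (0.38 by limma at 0.1), Pcdhgb6 (-0.25 with the name scheme, -0.13 at E6 alone, -0.39 to 0.42 without single tumors), Pcdhb17 (-0.0542 to 0.46 without single tumors), Pcdhgb1 (-0.18 to 1.4, likewise) and Pcdhgc5, which gave 0.0368 by DESeq2, 0.0368 with its size factors, 0.00629 with filterByExpr, 0.0274 with intracranial tumors alone, 0.60 and 0.35 by limma, 0.17 with the name scheme, 0.20 without the 3 Myc tumors and -0.88 to 0.25 without single tumors. Of the others, Pcdha1 was at -0.43 at E6 alone. The site value of Pcdhga2 was 0.157 with 43990A as intracranial. No paired analysis was possible because the groups share no mouse. Alpha isoforms in Myc tumors rest on few counts, which limits what can be said of their shares.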
